A study of Homo sapiens and Mus musculus with 92 samples.

Results

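NR1H2, NR1H3, ABCA1, ABCG1, MYLIP, LPCAT3, NPC1, NPC2 and SOAT1 are the 2 LXR receptors and 7 genes of cholesterol efflux, uptake control, lysosomal export and storage. They were chosen by gene symbol, as the rows of the count tables that carry these names, and make up 9 of the 28103 genes listed. All 9 were found in both tables and passed the filter on low values in both. HEL is an established human erythroleukemic cell line without an MLL rearrangement. RNA-seq of poly(A) RNA compared 3 libraries of control cells with 3 of MLL1 KD cells, and in an experiment of its own 2 libraries of control cells with 2 of AF9 KD cells. MLL1 (encoded by KMT2A) is a histone methyltransferase, and AF9 (encoded by MLLT3) is a subunit of the super elongation complex. Control cells are labelled WT by genotype and, by the study's methods, carried a control shRNA in the vector pLKO.1, so that all groups were transduced with lentivirus and selected with puromycin. Each knockdown rests on 1 shRNA, named shRNA #1. The comparisons ask how the transcripts of sterol export respond to loss of either protein.

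LXRα (NR1H3) and LXRβ (NR1H2) are nuclear receptors that bind DNA together with RXR and are switched on by oxysterols, which form when a cell holds more cholesterol than it needs. Their targets move cholesterol out of the cell (ABCA1, ABCG1), lower the uptake of lipoproteins (MYLIP) and remodel membrane phospholipids (LPCAT3). NPC2 and NPC1 pass cholesterol out of late endosomes and lysosomes, and SOAT1 stores it as ester. The opposite arm is run by SREBP2, which raises cholesterol synthesis and uptake when sterol is scarce. In the textbook scheme the LXR targets and the SREBP2 targets move against each other.

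The 3 sequences below bear on the comparisons. The sites of the shRNAs show where the knockdowns act, and the ABCA1 promoter is shown because ABCA1 had the largest fold change of the 9 genes in AF9 KD cells. The MLL1 site is on the plus strand in exon 3 of 36 of KMT2A at chr11:118474149-118474169 of hg38, and the AF9 site is on the minus strand in exon 5 of 11 of MLLT3 at chr9:20414247-20414267. Both lie in coding sequence. The ABCA1 sequence is the 250 bases before the RefSeq start, on the minus strand of GRCh38.p14 at chr9:104928156-104928405.
MLL1 shRNA #1 target: gcactgttaaacattccactt
AF9 shRNA #1 target: ttcaaagcctcacaaattaat
ABCA1 upstream: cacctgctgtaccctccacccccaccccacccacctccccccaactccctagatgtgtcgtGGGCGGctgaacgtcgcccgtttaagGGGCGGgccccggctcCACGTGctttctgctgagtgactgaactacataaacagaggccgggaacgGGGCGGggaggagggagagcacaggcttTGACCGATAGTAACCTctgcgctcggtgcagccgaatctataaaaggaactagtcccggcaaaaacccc
The capitals mark matches to the motifs searched on both strands. These were DR4 (2 copies of AGGTCA spaced by 4 bases, with at most 1 mismatch in each copy), the spacing that LXR and RXR bind, the GC box GGGCGG, the E-box CACGTG and the ETS core CCGGAA. The DR4 match lies on the opposite strand, 69 to 54 bases before the start, and overlaps none of the others. Of 35114 RefSeq promoter windows of the same length, 1.18% held a DR4 match, 42.6% a GC box, 6.35% the E-box and 14.5% the ETS core. RefSeq windows were matched for 8 of the 9 genes (12 windows, as NR1H3 and NPC2 have several). By window, as the shares above are counted, 10 of the 12 held a GC box, 6 the ETS core, and 1 each the DR4 match and the E-box. By gene, the GC box was found for 8, the ETS core for 5, and the DR4 match and the E-box for ABCA1 alone. A match of letters is a description and not a bound site.

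Libraries of the MLL1 experiment held 6966345 to 10380241 counts, and those of the AF9 experiment 12278989 to 14232408. Levels are given as CPM, read counts scaled to library size with TMM factors, or as TPM, which also scales to gene length, where different genes are compared. Genes past an adjusted p of 0.05 and changed by 1.5-fold or more in either direction were called, using the two-sided quasi-likelihood test of edgeR adjusted by Benjamini-Hochberg across every gene tested. MLLT3 had 548 and 528 CPM in control cells and 107 and 92.6 CPM in AF9 KD cells, a fall of 5.38-fold (adjusted p = 3.2e-08). KMT2A had 1256 to 1320 CPM in control cells and 814 to 833 CPM in MLL1 KD cells, a log2 fold change of -0.66 (SE 0.09, adjusted p = 0.0721) that was past the threshold with the replicate number as a block (adjusted p = 2.3e-07). Of the 31-base words of KMT2A exons 21.8% also lie in another annotated gene, a same-strand overlap. The annotation behind the deposited counts is not given, so how far this overlap affects the KMT2A counts is unknown. In AF9 KD cells KMT2A had a log2 fold change of -0.32 (adjusted p = 0.02), and of -0.16 with offsets for GC content (adjusted p = 0.143). In MLL1 KD cells MLLT3 had one of -0.28 (adjusted p = 0.613), and of -0.29 with the block (adjusted p = 0.017). These values lie under the fold threshold, and their part in the results was not tested. In the MLL1 experiment replicate 1 of both groups stood apart. Same-numbered libraries deviated together (correlations of 0.649, 0.327 and 0.354), but replicates 2 and 3 did so as much across numbers (0.371 and 0.361). The results with the replicate block are therefore given beside the others. All 13 erythroid and megakaryocytic markers were expressed in both experiments, with summed levels of 6781 to 8631 TPM in control and 5489 to 7130 TPM in MLL1 KD cells, and of 37109 to 37684 TPM in control and 26829 to 31479 TPM in AF9 KD cells. Most of the sums of the AF9 experiment came from HBG2 (mean of 24529 TPM in control and 17378 TPM in AF9 KD cells) and HBG1 (9034 and 6395 TPM). The single markers did not fall together in AF9 KD cells. HBA1 and HBA2 were called higher and HBG1 and HBG2 lower, and 9 of the 13 were not called, with a median log2 fold change of 0.21. With GC offsets HBA1, HBA2, HBG1 and HBG2 were not called. The part of these markers in the AF9 KD results was not tested. Of the 8 macrophage markers, CD14, CD163, MARCO and VSIG4 had no count in any library of the AF9 experiment. Only CD68 of that list passed the filter there, and the summed list lay between 87.2 and 87.8 TPM in control and between 68.1 and 91.2 TPM in AF9 KD cells. In the MLL1 experiment it lay between 28.4 and 64.2 TPM in control and between 13 and 38.2 TPM in MLL1 KD cells. Its highest gene there, CD68, had a mean of 46.9 TPM in control and 25.1 TPM in MLL1 KD cells. The 6 T and B lymphocyte markers summed to 28.8 to 38.1 TPM in control and 53.8 to 56.8 TPM in MLL1 KD cells. Their highest gene, CD2, had a mean of 14.7 TPM in control and 41.8 TPM in MLL1 KD cells. Only 2 of the 6 reached a mean of 1 TPM. The part of both lists in the results was not tested. Nothing in the labels says that replicates came from separate cultures, so the p values measure the spread between these libraries, which may be technical.

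All 9 genes were expressed in HEL cells, and the acyltransferase LPCAT3 and the transporter ABCG1 led the order of levels per length in control cells. In control cells of the MLL1 experiment the order was LPCAT3 (62.4 ± 4.26 TPM, SD, n = 3), ABCG1 (59.4 ± 11.5), NR1H2, MYLIP, SOAT1, NR1H3, NPC1, ABCA1 and NPC2 (5.99 ± 1.28 TPM). The libraries of LPCAT3 and ABCG1, of NPC1 and ABCA1, and of ABCA1 and NPC2 overlapped, so these neighbours did not differ beyond their spread. In control cells of the AF9 experiment LPCAT3 (59.3 ± 3.57 TPM, SD, n = 2) was again highest, followed by ABCG1, SOAT1, MYLIP, NPC1, NR1H2, NPC2, NR1H3 and ABCA1 (5.5 ± 0.128 TPM). Here the neighbours NR1H2 and NPC2 overlapped, as did NR1H3 and ABCA1. NR1H2 lay above NR1H3 in every library of both experiments. In MLL1 KD cells ABCG1, LPCAT3, NR1H2 and MYLIP came highest, and each overlapped with the next. In AF9 KD cells NR1H2 took place 3 of the order and ABCG1 place 5, where it overlapped with MYLIP, and ABCA1 was the lowest with 2.5 ± 0.39 TPM (SD, n = 2). The tables were counted and scaled separately, so that levels are compared within an experiment only.

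**Figure D1:**
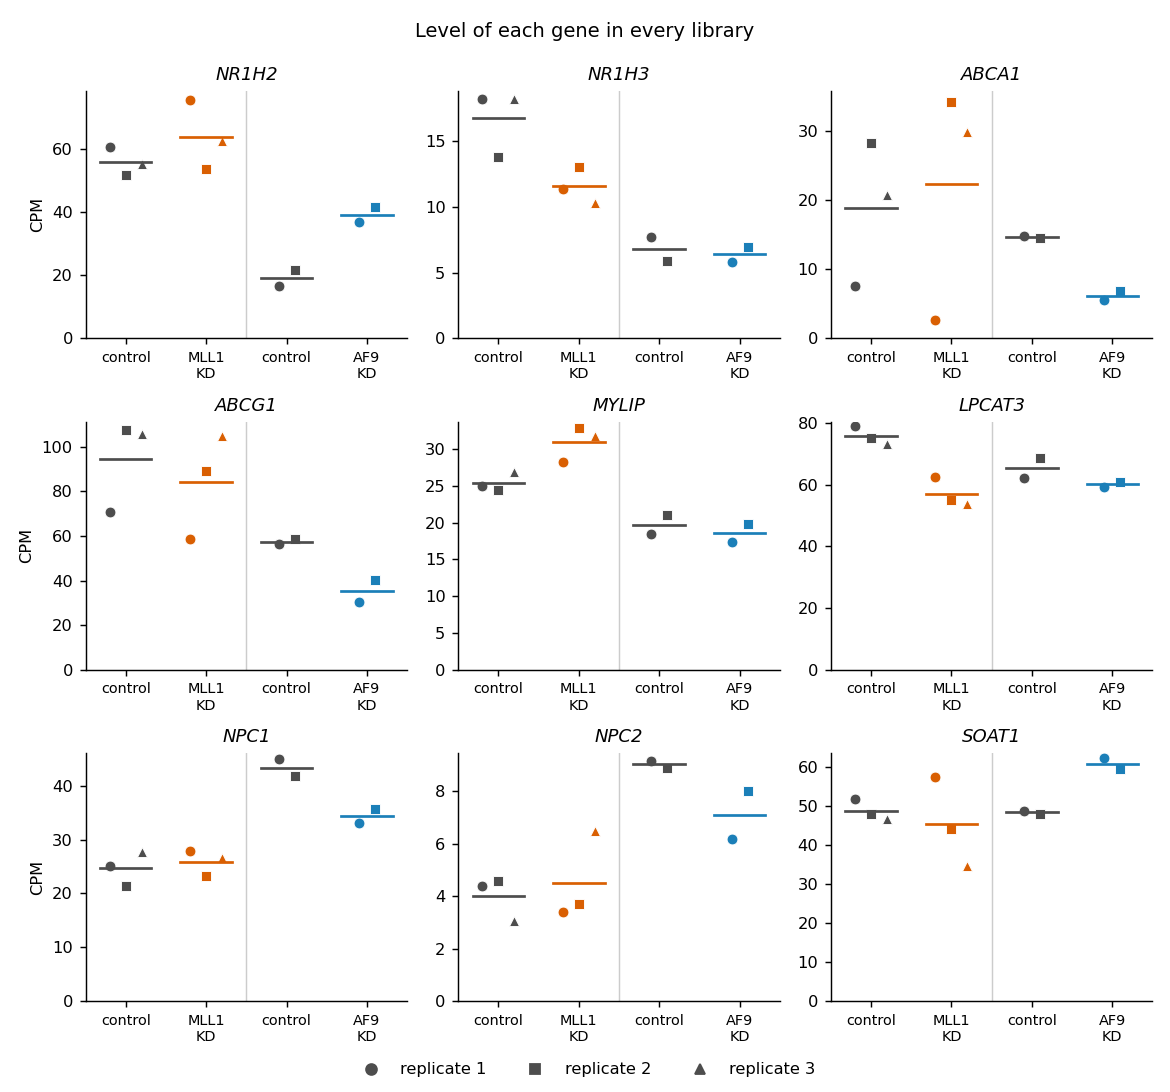
Level of each of the 9 genes in CPM (y axes, from 0) in every library of the MLL1 experiment (left of the line in each panel) and the AF9 experiment (right of it), with the mean of each group as a bar and the replicate number as the shape. ABCA1 is at 2.69 and 7.62 CPM in replicate 1 of the MLL1 experiment and at 20.8 to 34.3 CPM in replicates 2 and 3. Both AF9 KD libraries lie above their controls for NR1H2 and SOAT1, and below them for ABCA1, ABCG1, LPCAT3, NPC1 and NPC2. For NR1H3 and MYLIP they overlap. The share of all genes separated in this way was not counted.

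AF9 KD cells had more NR1H2 transcript and less ABCA1 and ABCG1 transcript than control cells. Of the 9 genes 1 was called higher and 2 lower, and the other 6 were not called. Over all 13332 genes tested, 13.1% were called, with 8.02% higher and 5.06% lower. The median log2 fold change was -0.12 over the 9 genes and 0.01 over all genes tested. Among all called genes 1069 were higher and 675 lower, and with total counts in place of TMM factors 1414 were higher and 438 lower. With total counts the same 3 genes were called in the same directions.

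NR1H2 encodes LXRβ, the receptor that most cell types express (ENSG00000131408, chromosome 19 of hg38, 50329653 to 50383388, plus strand, 10 exons). It had 16.7 and 21.7 CPM in control cells and 36.8 and 41.6 CPM in AF9 KD cells. Both KD libraries lay above both control libraries. The level was 2.05 times that of control, a log2 fold change of 1.04 (SE 0.14, adjusted p = 2.7e-04). Its exons have a GC content of 59.6%, and fold changes in AF9 KD cells rose with GC content over all genes, from a median log2 fold change of -0.18 in the lowest of 5 classes to 0.44 in the highest, which begins at 57.2%. With offsets for this trend the log2 fold change of NR1H2 was 0.73 and the gene was still called (adjusted p = 4.3e-04).

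NR1H3 encodes LXRα, which macrophages and liver express strongly (ENSG00000025434, chromosome 11, 47248300 to 47269033, plus strand, 10 exons). It had 7.70 and 5.88 CPM in control cells and 5.81 and 6.96 CPM in AF9 KD cells, and the groups overlapped. The log2 fold change was -0.09 (95% interval -0.57 to 0.38, adjusted p = 0.786). The interval spans folds from 0.67 to 1.3, so that a change as large as that of NR1H2 lies outside it.

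ABCA1 loads cholesterol and phospholipid onto lipid-poor apolipoprotein A-I and is the best known LXR target (ENSG00000165029, chromosome 9, 104781006 to 104928155, minus strand, 50 exons). It had 14.8 and 14.5 CPM in control cells and 5.58 and 6.82 CPM in AF9 KD cells. The control libraries were nearly equal and both KD libraries lay far below them. ABCA1 fell 2.37-fold, a log2 fold change of -1.24 (SE 0.18, adjusted p = 3.5e-04). With GC offsets the log2 fold change was -1.11. ABCA1 was called lower under every alternative in which it was tested, with adjusted p values up to 0.00154, and did not pass a filter of 5 TPM.

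ABCG1 exports cholesterol to HDL particles and works beside ABCA1 (ENSG00000160179, chromosome 21, 42199689 to 42297244, plus strand, 15 exons). It had 56.5 and 58.5 CPM in control cells and 30.4 and 40.2 CPM in AF9 KD cells. Both KD libraries lay below both control libraries, and the KD libraries differed from each other by more than the controls did. ABCG1 fell 1.63-fold, a log2 fold change of -0.70 (SE 0.13, adjusted p = 0.00173). Without AF9 KD replicate 1 the log2 fold change was -0.51 and no longer reached 1.5-fold (adjusted p = 0.00167).

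The other LXR targets on the list, MYLIP and LPCAT3, were not called in AF9 KD cells. MYLIP is a ubiquitin ligase that lowers lipoprotein uptake (ENSG00000007944, chromosome 6, 16129086 to 16148248, plus strand, 7 exons). It had 18.4 and 21.0 CPM in control cells and 17.3 and 19.8 CPM in AF9 KD cells, with a log2 fold change of -0.08 (95% interval -0.39 to 0.23). LPCAT3 puts polyunsaturated chains into phospholipids (ENSG00000111684, chromosome 12, 6976185 to 7018477, minus strand, 13 exons). It had 62.3 and 68.7 CPM in control cells and 59.4 and 61 CPM in AF9 KD cells, with a log2 fold change of -0.12 (95% interval -0.34 to 0.10). The intervals of both genes leave out a fold change of 1.5 in either direction.

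The genes of lysosomal export and storage differed by less than 1.5-fold. NPC1, the membrane protein of late endosomal export (ENSG00000141458, chromosome 18, 23506184 to 23586506, minus strand, 25 exons), had 44.9 and 41.7 CPM in control cells and 33.1 and 35.7 CPM in AF9 KD cells. Both KD libraries lay below both controls, and the log2 fold change was -0.33 (SE 0.12, adjusted p = 0.0444). NPC2, its soluble partner inside the lysosome (ENSG00000119655, chromosome 14, 74476192 to 74494177, minus strand, 5 exons), had 9.16 and 8.90 CPM in control cells and 6.19 and 8.01 CPM in AF9 KD cells, a log2 fold change of -0.34 (95% interval -0.77 to 0.08, adjusted p = 0.211). SOAT1, the enzyme that esterifies cholesterol in the endoplasmic reticulum (ENSG00000057252, chromosome 1, 179293714 to 179358680, plus strand, 16 exons), had 48.8 and 48.0 CPM in control cells and 62.3 and 59.6 CPM in AF9 KD cells, a log2 fold change of 0.33 (SE 0.10, adjusted p = 0.0269). Without a fold threshold NPC1 and SOAT1 would join the called genes, to 5 of 9, where 29.0% of all genes tested pass. NPC1 did not pass with GC offsets (adjusted p = 0.0895), and neither gene passed with DESeq2 (adjusted p = 0.115 and 0.0649). SOAT1 has exons of 39.9% GC, and with GC offsets its log2 fold change was 0.54.

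**Figure D2:**
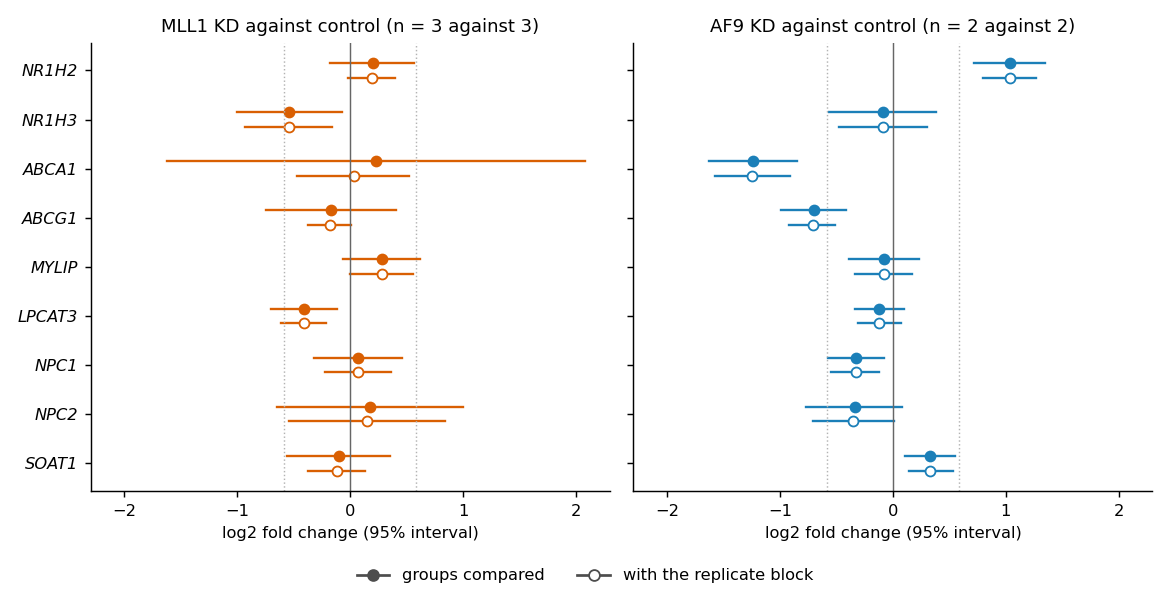
Log2 fold change (x axes) of the 9 genes in MLL1 KD cells (left) and AF9 KD cells (right), with 95% intervals, for the groups compared directly (filled) and with the replicate block (open). Dotted lines mark a fold change of 1.5. In AF9 KD cells NR1H2 (1.04) lies to the right of the lines and ABCA1 (-1.24) and ABCG1 (-0.70) to the left, and the interval of ABCA1 in MLL1 KD cells narrows from -1.62 to 2.08 to -0.47 to 0.52 with the block.

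**Figure D3:**
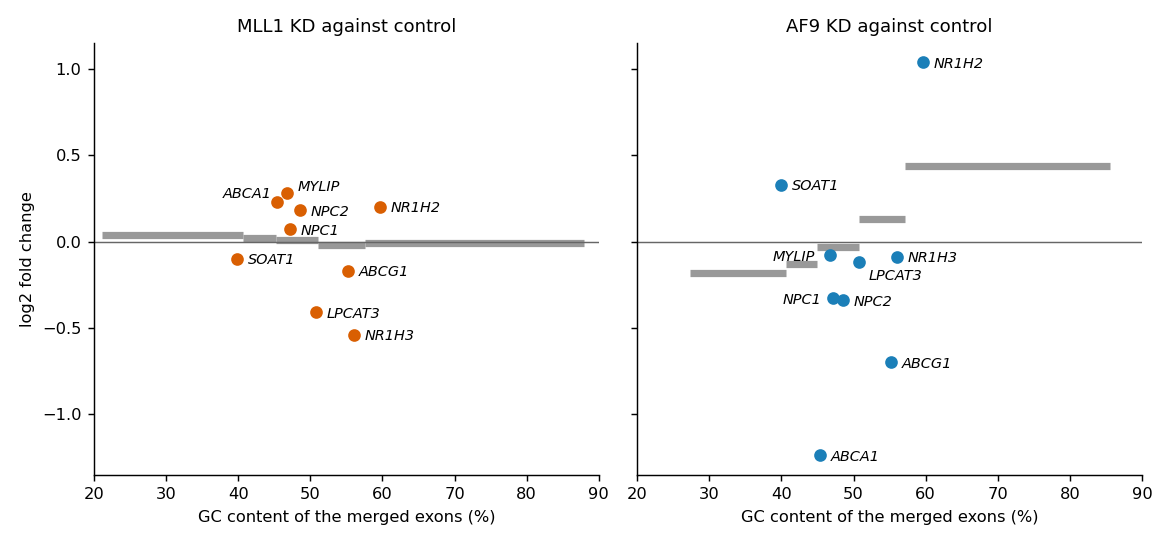
Log2 fold change (y axes) of the 9 genes against the GC content of their merged exons (x axes, in percent) in MLL1 KD cells (left) and AF9 KD cells (right). Gray bars give the median of all genes tested in each of 5 classes of GC content, which climbs from -0.18 to 0.44 in AF9 KD cells and stays between -0.02 and 0.04 in MLL1 KD cells.

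In MLL1 KD cells none of the 9 genes was called, with or without the replicate block. Of 14394 genes tested 10 (0.0695%) were called, and 684 (4.75%) with the block. DESeq2 called none of the 9 either, and at an unadjusted p under 0.05 edgeR had 2 of them, LPCAT3 and NR1H3. The share of all genes at that unadjusted threshold was not counted, so these are values of single genes and not a result about the 9. The median log2 fold change was 0.07 over the 9 genes and 0.01 over all genes tested.

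The 3 control libraries held LPCAT3 at 79.1, 75.1 and 73.2 CPM and the MLL1 KD libraries at 62.4, 55.2 and 53.8 CPM. All KD libraries lay below all control libraries. The log2 fold change was -0.41 (95% interval -0.70 to -0.12, adjusted p = 0.305), and in the paired fit with the replicate block it was also -0.41 with an adjusted p of 0.00719 from edgeR's test, under the fold threshold. With the block and no fold threshold LPCAT3 was the only gene of the 9 past an adjusted p of 0.05, where 13.6% of all genes tested pass. In AF9 KD cells the log2 fold change of LPCAT3 was -0.12, as given above.

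NR1H3 had 18.2, 13.8 and 18.2 CPM in control cells and 11.3, 13 and 10.3 CPM in MLL1 KD cells, and all KD libraries lay below all controls. The log2 fold change was -0.54 (95% interval -1 to -0.07, adjusted p = 0.415, and 0.0584 with the replicate block). NR1H2 had 60.5, 51.7 and 55.3 CPM in control cells and 75.6, 53.7 and 62.5 CPM in MLL1 KD cells. Its groups overlapped, with a log2 fold change of 0.20 (95% interval -0.18 to 0.57). MYLIP had 24.9, 24.5 and 26.9 CPM in control cells and 28.2, 32.9 and 31.7 CPM in MLL1 KD cells. All its KD libraries lay above the controls, and the log2 fold change was 0.28 (95% interval -0.06 to 0.62, adjusted p = 0.592, and 0.189 with the block).

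NPC1, NPC2 and SOAT1 overlapped between control and MLL1 KD cells. NPC1 ranged from 21.4 to 27.6 CPM in control cells and from 23.3 to 27.9 CPM in MLL1 KD cells, with a log2 fold change of 0.07 (95% interval -0.32 to 0.46). NPC2 had the lowest mean CPM of the 9 genes here, with 24 to 34 counts in control and 26 to 60 in MLL1 KD libraries. Its interval was wide (-0.65 to 1.00). In MLL1 KD replicate 1 ABCA1 was lower still, at 2.69 CPM against 3.38 CPM for NPC2. SOAT1 had 46.6 to 51.9 CPM in control cells and 34.8 to 57.5 CPM in MLL1 KD cells, with a log2 fold change of -0.10 (95% interval -0.56 to 0.35).

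ABCA1 and ABCG1 differed more between replicate numbers than between control and MLL1 KD cells. In order of replicate number, ABCA1 stood at 7.62, 28.4 and 20.8 CPM in control cells and at 2.69, 34.3 and 29.9 CPM in MLL1 KD cells. Replicate 1 was at 31% of the mean of replicates 2 and 3 in control cells and at 8.37% in MLL1 KD cells. Of the 14394 genes tested, 220 lay further below their replicates 2 and 3 in control cells and 14 in MLL1 KD cells. ABCG1 had 70.7, 107 and 106 CPM in control cells and 58.6, 89.2 and 105 CPM in MLL1 KD cells, so that replicate 1 was at 66.3% and 60.4% of the others. The log2 fold change of ABCA1 was 0.23 (95% interval -1.62 to 2.08), 0.03 with the replicate block (95% interval -0.47 to 0.52), and 0.39 in replicates 2 and 3 alone (adjusted p = 0.0505). That of ABCG1 was -0.17 (95% interval -0.75 to 0.41), and -0.18 with the block. Leaving out control replicate 1, MLL1 KD replicate 2 or MLL1 KD replicate 3 gave ABCA1 a fold change below 1. The ABCA1 pairs disagreed in sign, as the KD library lay below its control in replicate 1 and above it in replicates 2 and 3. The fall in replicate 1, from 7.62 to 2.69 CPM, lies outside the ABCA1 interval with the block. That interval therefore does not cover the spread between the pairs.

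The SREBP2 targets went the other way in replicate 1. Of the 25 tested genes of this list, 22 were higher in replicate 1 than in replicates 2 and 3 of control cells and 24 in MLL1 KD cells, against 41.7% and 42.8% of all genes tested. Their median log2 difference from the mean of replicates 2 and 3 was 0.95 in control cells and 1.00 in MLL1 KD cells, and -0.01 over all genes tested in both groups. HMGCS1, the enzyme that makes HMG-CoA for sterol synthesis, was at 73.8 CPM in the control library of replicate 1, against 13.3 and 15.4 CPM in the other controls, and at 33.6 CPM in MLL1 KD replicate 1, against 10.3 and 9.83 CPM in the others. INSIG1, which holds SREBP in the endoplasmic reticulum and is itself an SREBP target, had 101 CPM in control replicate 1 and 30.0 and 27.2 CPM in the other controls, and 65.2 CPM in MLL1 KD replicate 1 and 24.4 and 19.1 CPM in the others. The libraries with the least ABCA1 thus had the most SREBP2 target transcript in each group. Replicate numbers are not a treatment, no label says how replicate 1 differed, and this pattern is a description with no test.

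**Figure D4:**
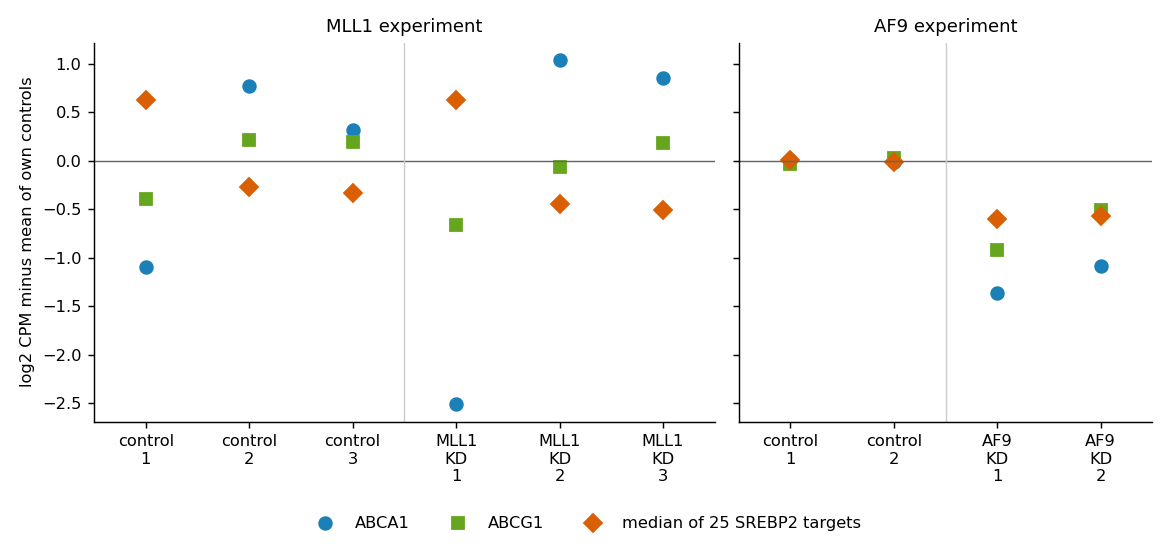
Log2 CPM (y axis), minus the mean of the control libraries of the same experiment, of ABCA1, ABCG1 and the median of 25 SREBP2 targets in each library (x axis). In replicate 1 of the MLL1 experiment ABCA1 is at -1.09 and -2.51 and the SREBP2 targets at 0.63 in both groups, while in AF9 KD cells ABCA1 (-1.36 and -1.08), ABCG1 (-0.92 and -0.51) and the SREBP2 targets (-0.60 and -0.57) are all below the controls.

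In AF9 KD cells the SREBP2 targets were lower together with ABCA1 and ABCG1. Of 25 tested, 12 were called lower, none was called higher and 13 were not called, against 5.06% of all genes called lower. The median log2 fold change was -0.54, against 0.01 over all genes tested, and with GC offsets it was -0.59 with 13 called lower. MSMO1, a demethylase late in cholesterol synthesis, fell by 1.71 on the log2 scale (from 173 to 52.8 CPM, adjusted p = 5.5e-07). INSIG1 fell by 1.28, HMGCS1 by 1.22 and the isomerase IDI1 by 1.13 on the same scale.

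The LXR targets outside the 9 genes did not share a direction in AF9 KD cells. Of 18 listed 10 were tested, 3 were called higher, 1 lower and 6 were not called, against 8.02% of all genes called higher and 5.06% lower, with a median log2 fold change of 0.19. APOC1, an apolipoprotein of HDL and VLDL, rose 1.80-fold (from 42.5 to 76.5 CPM, adjusted p = 2.4e-04). The fatty acid synthase FASN had a log2 fold change of 0.99 (adjusted p = 5.0e-04) and the sterol carrier APOE of 1.08 at a low level (1.62 to 3.45 CPM, adjusted p = 0.0317), and neither was called with GC offsets, where the values were 0.39 and 0.53. APOE was not called with DESeq2 either (adjusted p = 0.122), nor without control replicate 1 (1.36), control replicate 2 (0.87) or AF9 KD replicate 2 (0.69). MERTK, a receptor for the uptake of dead cells, fell 1.72-fold (adjusted p = 0.00108). SREBF1, which encodes the lipogenic SREBP1 and is a direct LXR target, had a log2 fold change of 0.31 (SE 0.18, adjusted p = 0.212), and SCD, the stearoyl desaturase, of -0.57 (SE 0.11, adjusted p = 0.00204), just under the fold threshold. SREBF1 and SCD are named outside the rule, after their values were seen, as are LAMP2, LIPA and CYP11A1 in AF9 KD cells.

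Of the 15 tested RXR genes and coregulators that partner with the receptors none was called in AF9 KD cells, where 13.1% of all genes were. At an adjusted p under 0.05 without a fold threshold 2 were higher and 1 lower, where 29.0% of all genes tested pass. DESeq2 called none of the 15, and their median log2 fold change was 0.05. RXRA, the DNA binding partner, had 2.8 CPM in control and 4.3 CPM in AF9 KD cells (log2 fold change 0.62, adjusted p = 0.0923). With GC offsets the log2 fold change of RXRA was 0.17. Of 7 genes that make or remove oxysterols 2 passed the filter in each experiment and none was called, by DESeq2 either. HSD3B7, an enzyme of bile acid synthesis, had 2.84 CPM in control and 4.7 CPM in AF9 KD cells (adjusted p = 0.0828), and was called higher without AF9 KD replicate 1 (log2 fold change 1.06) and with no filter beyond 1 count (0.71). CYP11A1, which cleaves the side chain of cholesterol, had 157 CPM in control and 105 CPM in MLL1 KD cells (log2 fold change -0.58, adjusted p = 0.339) and was called lower with the block (-0.60, adjusted p = 2.1e-04), but not with GC offsets and the block (-0.56) or in replicates 2 and 3 alone (-0.48), both under 1.5-fold. Its log2 fold change in AF9 KD cells was -0.50 (adjusted p = 0.037), under the fold threshold, and it was called lower with GC offsets.

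Around NPC1 and NPC2, 4 of 15 tested genes of late endosomes and lysosomes were called higher in AF9 KD cells and none lower, against 8.02% of all genes called higher and 5.06% lower. They were the cation channel MCOLN1 (log2 fold change 1.04, adjusted p = 0.00446), the membrane protein SCARB2 (0.72, adjusted p = 0.00319), the protease CTSD (0.67, adjusted p = 0.0106) and LAMP1 (0.60, adjusted p = 0.00269). CTSD and LAMP1 were not called with GC offsets, where their values were 0.14 and 0.58. SCARB2 fell under the fold threshold without AF9 KD replicate 2 (0.57), CTSD without control replicate 1 (0.38) or AF9 KD replicate 2 (0.56), and LAMP1 without control replicate 1 (0.51) or AF9 KD replicate 1 (0.43). LAMP2, a lysosomal membrane protein, and the lysosomal lipase LIPA each had a log2 fold change of -0.28 (adjusted p = 0.0382 and 0.0454), under the fold threshold. The list had a median of 0.03. On the list of ester cycle and sterol transfer genes beside SOAT1, 1 of 13 was called higher and 1 lower, a share near the 13.1% of all genes called. The hormone-sensitive lipase LIPE rose from 3.51 to 7.54 CPM (log2 fold change 1.11, adjusted p = 0.00363) and was not called without control replicate 1 (0.90, adjusted p = 0.0679), and OSBPL9, a lipid transfer protein, fell 1.96-fold (adjusted p = 2.0e-05).

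Of the other ABC lipid transporters 8 were tested in AF9 KD cells, and 4 were called higher and none lower, against 8.02% and 5.06% of all genes, with a median log2 fold change of 0.50. The log2 fold change was 1.22 for ABCG2 (1.33 to 3.18 CPM), 1.10 for ABCA2 and 0.73 for ABCA3 among those called. With GC offsets ABCG2 was the 1 gene still called, and the median was 0.19. DESeq2 called 2 of the 8, neither ABCG2 (adjusted p = 0.117) nor ABCA2 (adjusted p = 0.0865) among them. Without control replicate 2 or AF9 KD replicate 1 ABCG2 was not called (0.80 and 0.63), and without control replicate 1 or AF9 KD replicate 2 it was at 1.90 and 1.65. ABCA3 was not called without control replicate 1 (0.64) or AF9 KD replicate 2 (0.41). Of the acyltransferases related to LPCAT3, LPCAT1 was called higher (log2 fold change 0.74, adjusted p = 4.4e-04) and MBOAT1 lower (-0.80, adjusted p = 3.3e-04), and 4 of 6 were not called. Of 6 tested lipoprotein receptors and partners of MYLIP 1 was called higher and none lower, with a median of 0.01.

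**Figure D5:**
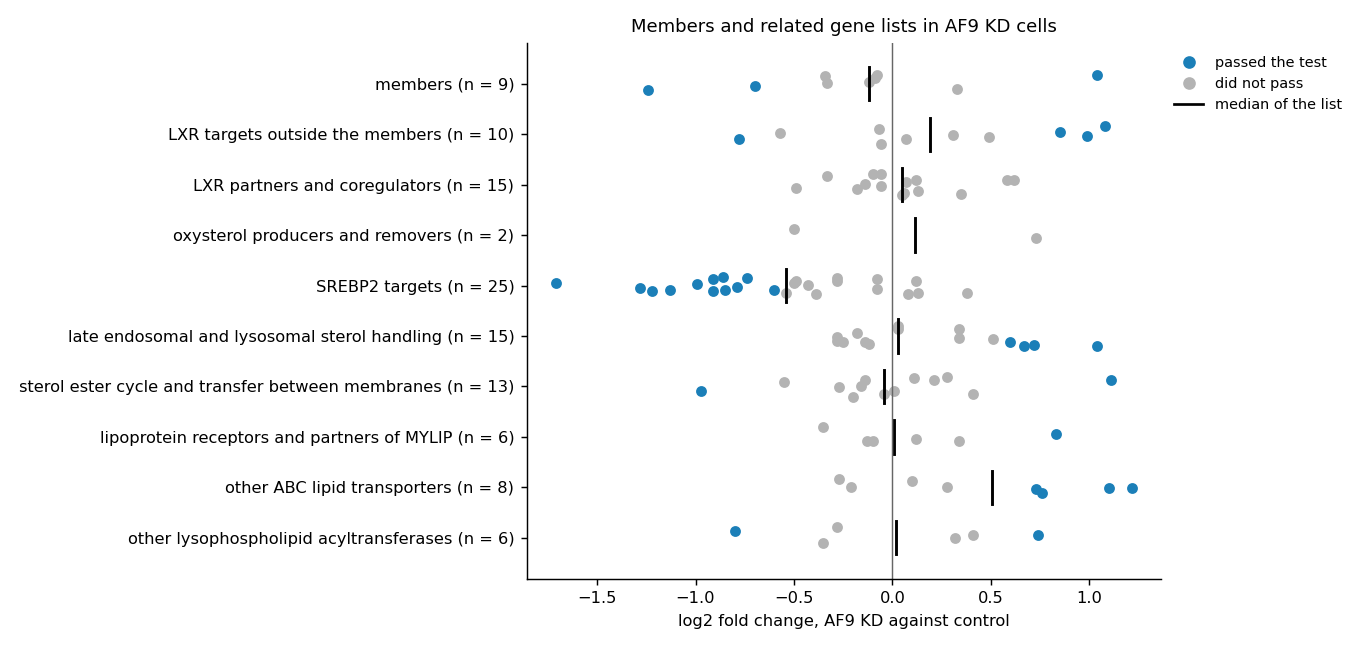
Log2 fold change in AF9 KD cells (x axis) of the tested genes of each list (rows), with called genes in blue and the median of each list as a black bar. The SREBP2 targets lie mostly to the left (median -0.54), the other ABC lipid transporters mostly to the right (median 0.50), and the 9 members on both sides (median -0.12).

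In MLL1 KD cells no gene of these lists was called without the block. With the replicate block 5 of 101 tested (4.95%) were called, a share near the 4.75% of all genes, so that the count is no result about the lists. SCD had 274 CPM in control and 161 CPM in MLL1 KD cells (log2 fold change -0.77 in both fits, adjusted p = 0.578, and 2.6e-06 with the block), HMGCS1 had 34.2 and 17.9 CPM (-0.92, adjusted p = 0.773, and -0.79 with the block, adjusted p = 0.00293), and CYP11A1 as given above. HMGCS1 was not called in replicates 2 and 3 alone (-0.52, adjusted p = 0.0613), and without the block its value ranged from -1.76 without MLL1 KD replicate 1 to 0.33 without control replicate 1, where the sign turned. OSBPL11 had a log2 fold change of 0.61 with the block (adjusted p = 0.0366) and was not called in replicates 2 and 3 alone (0.29, adjusted p = 0.272). MBOAT7, which acts on lysophosphatidylinositol, had a log2 fold change of 0.71 with the block (adjusted p = 0.0061), and MBOAT7 and SCD were also called in replicates 2 and 3 alone (0.80 and -0.77). The SREBP2 targets as a list had a median of -0.04 without and -0.08 with the block.

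The effects of the 2 knockdowns on the 9 genes were compared in a fit of all 10 libraries, each effect against its own controls. Without the block none of the 9 genes differed at an adjusted p under 0.05, where 1.35% of 12731 genes did, and DESeq2 called NR1H2 (adjusted p = 0.0452). At an unadjusted p under 0.05 edgeR had NR1H2 alone, a threshold at which the share of all genes was not counted. With the replicate block NR1H2, ABCA1 and ABCG1 differed, where 24.4% of all genes tested did, so that 3 of 9 is read as values of these genes and not as a result about the set. NR1H2 was higher in AF9 KD than in MLL1 KD cells by 0.83 on the log2 scale relative to control (95% interval 0.49 to 1.17, adjusted p = 0.00138), ABCA1 differed by -1.32 (95% interval -2.09 to -0.55, adjusted p = 0.0142) and ABCG1 by -0.55 (95% interval -0.87 to -0.24, adjusted p = 0.0126). With GC offsets and no block the difference of NR1H2 was 0.50 (95% interval 0.02 to 0.97, adjusted p = 0.357). The ABCA1 pairs of the MLL1 experiment disagreed in sign, as given above. For the other 6 genes the adjusted p with the block ranged from 0.0681 to 0.371. The intervals do not show that these genes acted alike, as that of NPC2 spans -1.39 to 0.32.

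The genes most like NR1H2, ABCA1 and ABCG1 were sought over the 10 libraries, by the root mean square difference of log2 CPM after subtracting the mean of the controls of each experiment, among 12730 other genes tested in both. CROCC and LIMK1 were nearest to NR1H2, both with a difference of 0.08, where the median gene had 0.57. KLHL24 (0.27) and YPEL2 (0.30) were nearest to ABCA1, where the median gene had 1.18. SLC9A7 and SERPING1 (both 0.10) were nearest to ABCG1, with a median of 0.52. In AF9 KD cells the log2 fold changes were 0.97 for CROCC, 0.95 for LIMK1, -1.29 for KLHL24, -1.33 for YPEL2, -0.59 for SLC9A7 and -0.53 for SERPING1. The libraries share depth and base composition effects, and nearness says nothing of shared control.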

How the data were processed

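Reads were cleaned with fastp (version 0.13.1), aligned to hg38 with HISAT2 (version 2.1.0) and assigned to genes by strand with featureCounts (version 1.6.1) by the authors. The versions come from the submitters' processing notes, and the annotation behind the gene symbols is not given in the sources used here. The deposited values are raw read counts per gene and library. Samples of other assays were not analysed here. The tests used edgeR (version 4.0.16, quasi-likelihood, TMM factors) in R (version 4.3.3), and the tables Python (version 3.11.15). Symbols were joined to GENCODE of hg38 (92.3% of 28103 matched) for lengths, positions and GC content of merged exons. Genes with a mean of at least 1 TPM in an experiment (1 CPM where no length was known) were tested. Alternatives were DESeq2 (version 1.42.0, unshrunken Wald test), its size factors in edgeR, total counts, no filter or 5 TPM, no fold threshold or 2-fold, the replicate block, GC offsets (lowess, span 0.3), each library left out, and replicates 2 and 3 alone. The scripts were tested on simulated data.

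Whether replicate numbers pair the libraries was judged from the correlation of deviations from the group means of log2(CPM + 0.25). For control and MLL1 KD libraries of the same number it was 0.649, 0.327 and 0.354, all over 0.1, so the numbers were taken as pairs. Between replicates 2 and 3 it was as high (0.371 and 0.361), so that the pairing of these replicates rests on the number alone.

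The genes, lists and tests were chosen with earlier results of these data known. Named are the 9 genes, KMT2A and MLLT3, in each pathway list and experiment up to 4 genes with the largest absolute log2 fold change among those called with or without the replicate block, and for each of the 9 that was called the 2 genes of most similar pattern. SREBF1, SCD, LAMP2, LIPA and CYP11A1 in AF9 KD cells, and INSIG1 in the MLL1 experiment, were named after their values were seen, as were the motifs. Some genes that this rule names are not reported here. Intervals are for the mean effect and are based on the spread between libraries, and reads are not independent molecules.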

Additional observations from a re-analysis of the deposited data

Results flagged for a closer look

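The effects of AF9 KD and MLL1 KD on 3 of the 9 genes differed when tested against each other with the replicate block (edgeR's quasi-likelihood test, adjusted over 12731 genes, of which 24.4% differed in the same fit). The difference, AF9 KD effect minus MLL1 KD effect, was 0.83 on the log2 scale for NR1H2 (adjusted p = 0.00138), higher than its own controls in 2 of 2 AF9 KD libraries. It was -1.32 for ABCA1 (adjusted p = 0.0142) and -0.55 for ABCG1 (adjusted p = 0.0126), both lower than all controls in 2 of 2 AF9 KD libraries. Without the block the same differences were 0.82, -1.49 and -0.56 with adjusted p values of 0.133, 0.553 and 0.485, and over all alternatives the adjusted p ranged from 0.00138 to 0.53 for NR1H2, from 0.0142 to 0.828 for ABCA1 and from 0.0126 to 0.777 for ABCG1. The ABCA1 pairs of the MLL1 experiment disagreed in sign, and replicate 1 lay outside the interval of the MLL1 KD effect with the block. The ABCA1 difference with the block is therefore read with that limit. The SREBP2 targets and ABCA1 levels of replicate 1 in the MLL1 experiment move with the spread of ABCA1 there, and their part in these differences was not tested.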

How the results depend on the processing

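None of the 9 genes was called in MLL1 KD cells under any alternative run. In AF9 KD cells 3 were called, 5 with no fold threshold, and 2 with a filter of 5 TPM (ABCA1 not tested), with a fold change of at least 2 or without AF9 KD replicate 1 (ABCG1, -0.51). Of the single values of the 9 genes and of the gene targeted in the other experiment, 143 of 150 in the MLL1 and 111 of 119 in the AF9 experiment kept their direction and their side of the threshold. All genes called in MLL1 KD cells (10) numbered 232 with DESeq2, 6 with total counts, 32 with no filter beyond 1 count, 684 with the replicate block, 678 with GC offsets and the replicate block, 697 in replicates 2 and 3 alone, 53 without MLL1 KD replicate 1 and 0 without any other library. KMT2A was called with DESeq2 (-0.65), with the replicate block (-0.66, a paired fit), with GC offsets and the block (-0.67), in replicates 2 and 3 alone (-0.64) and without MLL1 KD replicate 1 (-0.65, range -0.68 to -0.64 over libraries left out). All genes called in AF9 KD cells (1744) numbered 1099 with GC offsets, 3862 with no fold threshold, 510 with a fold change of at least 2, and 1051 (without control replicate 1) to 1999 with a library left out. In the AF9 experiment, with 2 pairs, same-numbered libraries had a correlation of 0.178 and share only a number. The replicate block there called 1957 genes, changed no call among the 9, and added RXRA (0.62, adjusted p = 0.0487) and HSD3B7 (0.70, adjusted p = 0.0211) among the pathway lists. With GC offsets and the block RXRA was at 0.18 and HSD3B7 at 0.27, and neither was called. Of the 9 genes, those whose effects differ between the knockdowns numbered 0, 1 with DESeq2, 3 with the replicate block, and 0 to 1 with a library left out (NR1H2, without MLL1 KD replicate 1, adjusted p = 0.0274). Some uncalled values turned sign. With a library left out, in MLL1 KD cells ABCA1 ranged from -0.21 to 0.77 (-0.15 and -0.05 among them), ABCG1 from -0.36 to 0.04, NPC1 from -0.03 to 0.15, NPC2 from -0.18 to 0.36 and SOAT1 from -0.31 to 0.06, and in AF9 KD cells NR1H3 from -0.27 to 0.12 (0.03 among them) and MYLIP from -0.18 to 0.02. MYLIP was at 0.01 with total counts, 0.03 with GC offsets and 0.02 with GC offsets and the block. The cause was not tested. Depth limits NPC2 in the MLL1 experiment (24 to 60 counts) and ABCA1 in its MLL1 KD replicate 1 (2.69 CPM). It also limits APOE, ABCG2, RXRA and HSD3B7 in the AF9 experiment (under 5 CPM).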
